A study of Mus musculus with 13 samples.

Results

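Atoh7 and a set of retinal and eye field genes were followed across whole brains of mouse embryos with and without Meg3. The set held 8 symbols: Atoh7, Crx, Rcvrn, Rax, Six3, Six6, Pou4f2 and Rbpms. Every probe set annotated to one of these symbols alone was taken, which gave 14 probe sets for 7 genes, of 18193 genes with a named probe set on the array. Pou4f2, a transcription factor of retinal ganglion cells, was matched by no probe set of the platform annotation and is not analysed here. The set was chosen by its signals on these same arrays, above all by the knock-out over wild-type difference of Atoh7, so differences between the genotypes are given for its members as descriptions, without a test.

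Whole brains were collected at embryonic day 18.5 from 6 wild-type embryos and 7 Meg3 knock-out embryos of 5 litters. Each embryo was hybridised to its own Affymetrix array, and the labels call the arrays biological replicates. Arrays are named here by genotype and replicate number. Wild-type 1 and 2 and knock-out 2 came from litter 219, wild-type 3 and knock-out 3 and 4 from litter 238, wild-type 4 and 5 and knock-out 5 and 6 from litter 250, wild-type 6 and knock-out 7 from litter 262, and knock-out 1 from litter 148. Meg3 is an imprinted long non-coding RNA, and the sources used here do not state the extent of the deletion, the strain or the sex.

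Atoh7 encodes a basic helix-loop-helix transcription factor that commits retinal progenitors to the ganglion cell fate and is best known for this role in the eye. Rax, Six3 and Six6 are homeobox genes of the eye field, the region of the early forebrain from which the eyes form, and they are also used in the hypothalamus, the pituitary or other parts of the forebrain. Crx and Rcvrn act in photoreceptors and are also active in the pineal gland, and Rbpms encodes an RNA-binding protein that marks retinal ganglion cells and is found in smooth muscle too. The question followed here was whether Atoh7 varied together with the other genes, as it might if retina had been carried along with some brains, or by itself.

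The window just upstream of the Atoh7 start is shown because Atoh7 leads the set and because proteins of its class bind E-boxes, short DNA motifs of the form CANNTG. RefSeq (GRCm38.p6) held a window for 4 of the 7 genes. The 250 bases before the start of Atoh7, chr10:63099535-63099784 on the plus strand, are printed 5′ to 3′ with the E-boxes in capitals.
Atoh7: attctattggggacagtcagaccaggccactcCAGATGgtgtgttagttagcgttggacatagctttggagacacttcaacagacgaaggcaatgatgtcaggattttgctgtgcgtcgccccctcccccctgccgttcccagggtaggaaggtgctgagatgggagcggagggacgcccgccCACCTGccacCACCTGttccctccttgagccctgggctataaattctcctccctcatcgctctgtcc
They held 3 E-boxes, which began 218, 67 and 57 bases upstream of the start. The first of these reads CAGATG and the other two CACCTG, the reverse complement of CAGGTG. Counting matches on both strands, CANNTG was present in 66.2% of all 32851 windows of this length, and 12.2% held at least 3. CAGATG was present in 14.4% and CAGGTG in 17.2% of windows, and both are also matches of CANNTG. At least 2 matches of CAGGTG, as in the Atoh7 window, were held by 2.06% of windows. The windows of Crx, Six3 and Six6 held 0 matches of CANNTG, and that of Crx held 2 of TAATCC, a homeodomain motif present in 6.25% of windows. These are letters in a window. No binding was measured.

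Meg3 checked the genotype labels. Its signal was 4955 ± 1374 (SD, n = 6) in wild-type brains, from 3109 upwards, and 378 ± 106 (SD, n = 7) in knock-out brains, up to 589. The log2 change was -3.64 ± 0.21 (SE), at an adjusted p of 6.31e-07 by limma. Signals are the deposited linear intensities, and log2 changes are differences of log2(signal + 16), knock-out minus wild-type, so that changes of dim probe sets are understated. RNA quality was read from Actb, whose signal at the 3′ end over that at the 5′ end gave a ratio of 2.92 in wild-type 2 and 1.81 in knock-out 1, against 1.32 to 1.495 in the others. Across all 45037 non-control probe sets the median log2 change was 0.08, and 69.6% had a higher mean in knock-out brains. Limma called 25 of them at an adjusted p under 0.05, which is 0.0555% (3 higher, 0.00666%, and 22 lower, 0.0488%). After quantile normalization or median centring it called 0 higher (801 and 500 at an unadjusted p under 0.05) and 22 lower, and the median of all probe sets moved to -0.01 and -0.11.

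Most of the genes were dim in these brains. With a dimness line at the 40th percentile of all mean log2 values, which is a signal of 56.9, 5 of the 14 probe sets lay above it, and 9 lay below it. The genes with a probe set above the line were Atoh7 (1 of 2), Six3 (1 of 3) and Rbpms (3 of 4). Crx, Rcvrn, Rax and Six6 had 0 above it. None of the 14 probe sets was called between the genotypes, beside 0.0555% of all probe sets. The groups overlapped for all 14, and the share of all probe sets whose groups overlap was not counted.

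Atoh7 had a higher signal in 5 of the 7 knock-out brains than in any wild-type brain. On its brighter probe set, 1422929_s_at, the wild-type signals ran from 38.9 over a median of 61.1 to 102.5, and the knock-out signals from 57.0 over a median of 225 to 401. The 5 high arrays were knock-out 1 (225), knock-out 2 (209), knock-out 3 (233), knock-out 4 (401) and knock-out 5 (230). Knock-out 6 (88.5) and knock-out 7 (57.0) lay within the wild-type range, and no array had a signal between 103 and 209. The means were 67.7 ± 22.0 (SD, n = 6) in wild-type and 206 ± 112 (SD, n = 7) in knock-out brains, and the log2 change was 1.26 ± 0.34 (SE), or 2.39-fold for signal + 16. Of all probe sets, 0.0289% had a larger log2 change upwards. Rcvrn 1450215_at and Six3 1426638_at had 4 of the 7 knock-out arrays above every wild-type array. The other probe sets of the set, apart from Atoh7, had 0 to 2, and such arrays were not counted over all probe sets. The suffix _s_at marks a probe set whose probes may match more than 1 transcript. In bulk RNA, fewer or more cells of a type and less or more RNA per cell cannot be told apart.

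The second Atoh7 probe set, 1450796_at, lay below the dimness line by its mean and in every array but knock-out 2. Its wild-type signals ran from 3.11 over a median of 6.67 to 12.7, and its knock-out signals from 8.49 over a median of 42.5 to 79.0. The same 5 knock-out arrays were above every wild-type array, at 42.5, 79.0, 14.6, 46.3 and 49.3 in knock-out 1 to 5, and knock-out 6 (8.49) and knock-out 7 (11.3) were again within the wild-type range. Knock-out 3 was close to the highest wild-type array, so the gap seen on the brighter probe set was not present here. The order among the high arrays differed, knock-out 4 being highest on the brighter and knock-out 2 on the dimmer probe set. The log2 change was 1.03 ± 0.29 (SE). It depended on the constant added before the logarithm, at 1.96 with 1 and 0.46 with 64, and all wild-type values were below 16.

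**Figure D1:**
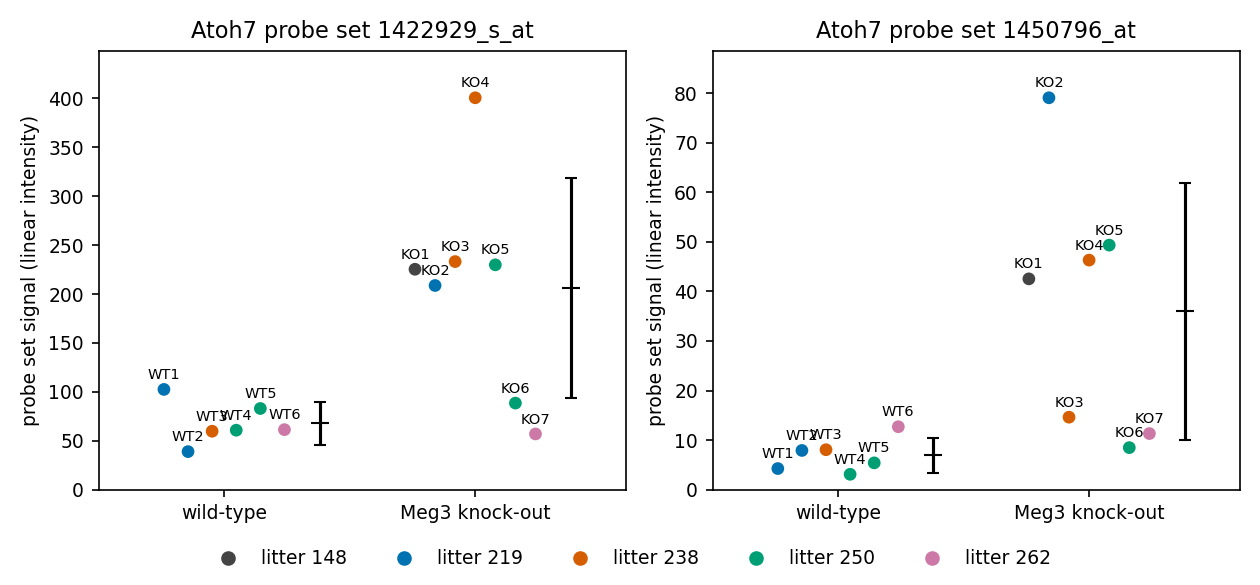
Signal of each Atoh7 probe set (vertical axis, linear intensity) in each array, by genotype (horizontal axis) and coloured by litter; the bar at the right of each group is the mean ± SD (n = 6 wild-type, n = 7 knock-out). On 1422929_s_at knock-out 1 to 5 lie at 209 to 401 and all wild-type arrays at 38.9 to 102.5, with knock-out 6 and 7 among the wild-type values.

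Across the 13 arrays the 2 Atoh7 probe sets went together, with Pearson r = 0.79 and Spearman rho = 0.64, given without a test because the difference between the genotypes that chose the set enters them. Without the 2 arrays farthest from the median r was 0.84. With each genotype centred on its mean r was 0.58, within knock-out arrays it was 0.68 (n = 7, exact permutation p = 0.116) and within wild-type arrays, where the dimmer probe set was below 13, it was -0.42 (n = 6, exact permutation p = 0.410).

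The Atoh7 difference was present in 3 of the 4 litters that held both genotypes. Between knock-out and wild-type littermates the log2 difference on 1422929_s_at came to 1.48 for litter 219, 2.09 for 238, 0.88 for 250 and -0.084 for 262. On 1450796_at it was 2.11, 0.86, 0.98 and -0.071 in the same order. In litter 250 the 2 knock-out littermates differed, at 230 and 88.5 on the brighter probe set, against 60.8 and 83.01 in their wild-type littermates. Whether litters 250 and 262 differ from the rest in Atoh7 was not tested, since each holds 1 or 2 embryos of a genotype. Over probe sets above the dimness line, deviations from the genotype mean correlated at 0.75 between wild-type 6 and knock-out 7 of litter 262. For the other wild-type and knock-out littermates they correlated at -0.12 to 0.17. Without the 2 arrays of highest Actb ratio the log2 change was 1.09 on the brighter and 0.99 on the dimmer probe set.

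Both photoreceptor genes were dim. Crx encodes a homeodomain factor that switches on photoreceptor genes. Its brighter probe set, 1449185_at, had wild-type signals from 31.7 over a median of 43.5 to 66.8 and knock-out signals from 31.8 over a median of 53.0 to 63.9, with a log2 change of 0.06 ± 0.17 (SE). The ranges nearly coincide, and the arrays with high Atoh7 were spread over it, from 31.8 in knock-out 5 to 63.9 in knock-out 4. On its dimmer probe set, 1418705_at, the highest array stood at 33.5 and the log2 change was 0.22 ± 0.25 (SE).

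Rcvrn, which encodes the calcium sensor recoverin, was near the bottom of the scale. Its only probe set, 1450215_at, ran from 1.70 over a median of 2.65 to 7.10 in wild-type arrays and from 3.55 over a median of 7.56 to 21.1 in knock-out arrays. The 2 highest arrays were knock-out 7 (21.1), which had the lowest Atoh7 signal of the knock-outs, and knock-out 3 (20.1), while knock-out 4, the highest for Atoh7, was the lowest knock-out for Rcvrn (3.55). The log2 change was 0.41 ± 0.17 (SE), and by its mean log2 value it stood at percentile 5.77 of all probe sets. With a constant of 1 in place of 16 the log2 change of Rcvrn was 1.26 ± 0.42 (SE), beside 1.42 ± 0.40 (SE) and 1.96 ± 0.51 (SE) on the Atoh7 probe sets, and with 64 it was 0.14.

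Of the eye field genes only Six3 was bright on any probe set. Six3 encodes a homeodomain factor needed for the anterior forebrain and the eyes. On 1427523_at it ran from 439 over a median of 624 to 801 in wild-type and from 439 over a median of 553 to 760 in knock-out arrays, a log2 change of -0.07 ± 0.17 (SE). Its lowest knock-out was knock-out 4, the highest for Atoh7. The other Six3 probe sets lay below the dimness line, with log2 changes of -0.04 ± 0.40 (SE) on 1426637_a_at and 0.46 ± 0.23 (SE) on 1426638_at. Both were lowest in wild-type 2, at 4.42 and 3.50, the array with the highest Actb ratio, where 1427523_at gave 609. Without wild-type 2 the log2 changes were -0.37 on 1426637_a_at and 0.27 on 1426638_at, and without both arrays of high Actb ratio -0.34 and 0.15. Any other part of RNA quality was not tested.

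Rax, a homeobox gene required for the eyes to form, varied widely at low signals. Its probe set 1418558_at ran from 3.45 over a median of 27.6 to 91.5 in wild-type and from 3.26 over a median of 9.62 to 55.5 in knock-out arrays, with a log2 change of -0.44 ± 0.42 (SE). It was high in wild-type 3 (91.5), knock-out 5 (55.5) and wild-type 2 (54.97), and knock-out 4 was the lowest of all (3.26). Within litters 219, 238, 250 and 262 its log2 difference was -0.54, -2.29, 1.26 and -1.11. Six6, a relative of Six3 used in the retina, hypothalamus and pituitary, ran from 3.27 over a median of 35.5 to 68.3 in wild-type and from 10.6 over a median of 37.8 to 49.0 in knock-out arrays on 1419408_at. Its groups overlapped over most of their range, and the log2 change was 0.14 ± 0.32 (SE).

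Rbpms, the ganglion cell and smooth muscle gene, differed little between the genotypes on its 4 probe sets. Its brightest by mean, 1437161_x_at, ran from 63.8 over a median of 94.8 to 181 in wild-type and from 72.2 over a median of 99.0 to 124 in knock-out arrays, with a log2 change of -0.02 ± 0.20 (SE). The others had log2 changes of -0.11 ± 0.16 (SE) on 1425652_s_at, 0.19 ± 0.14 (SE) on 1429359_s_at and 0.04 ± 0.23 (SE) on 1455936_a_at. Its high wild-type array on 1437161_x_at was wild-type 1 (181), which was also the highest wild-type array for Atoh7 (102.5).

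**Figure D2:**
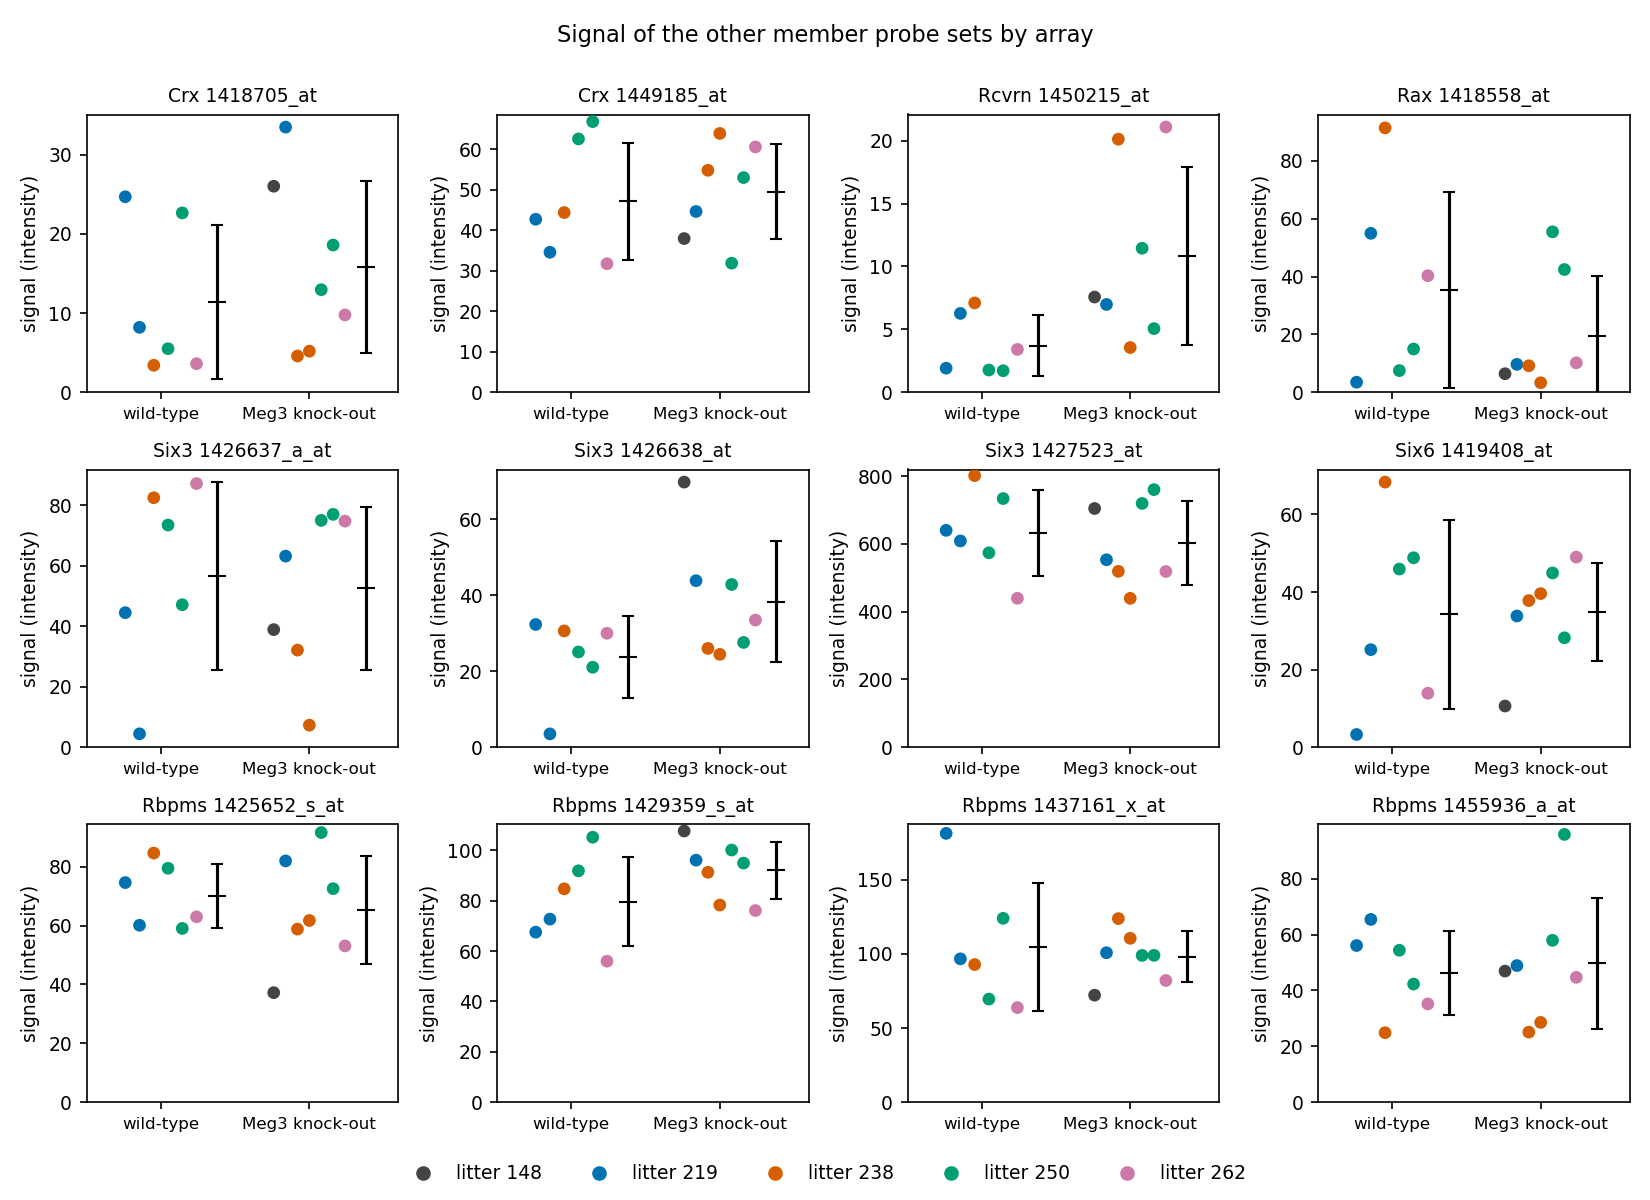
Signal of the other 12 probe sets (vertical axes, linear intensity, each panel with its own scale from 0) by genotype, with 1 point per array coloured by litter and the mean ± SD at the right of each group (n = 6 and n = 7). The genotypes overlap in every panel, and only Six3 1427523_at, at 439 to 801, stands at high signal.

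Apart from Atoh7, the members had no common direction. Of the other 12 probe sets 7 had a higher and 5 a lower mean in knock-out brains, with log2 changes from -0.44 to 0.46 and a median of 0.05, beside 0.08 over all probe sets. Quantile normalization left 4 higher and 8 lower (median -0.12) and median centring 3 higher and 9 lower (median -0.14), beside -0.01 and -0.11 over all probe sets. Over the alternatives tried, 9 of the 14 probe sets changed sign in at least 1 setting. The 5 that did not were both of Atoh7, Crx 1418705_at, Rcvrn and Six3 1426638_at, and 0 were called in any setting.

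**Figure D3:**
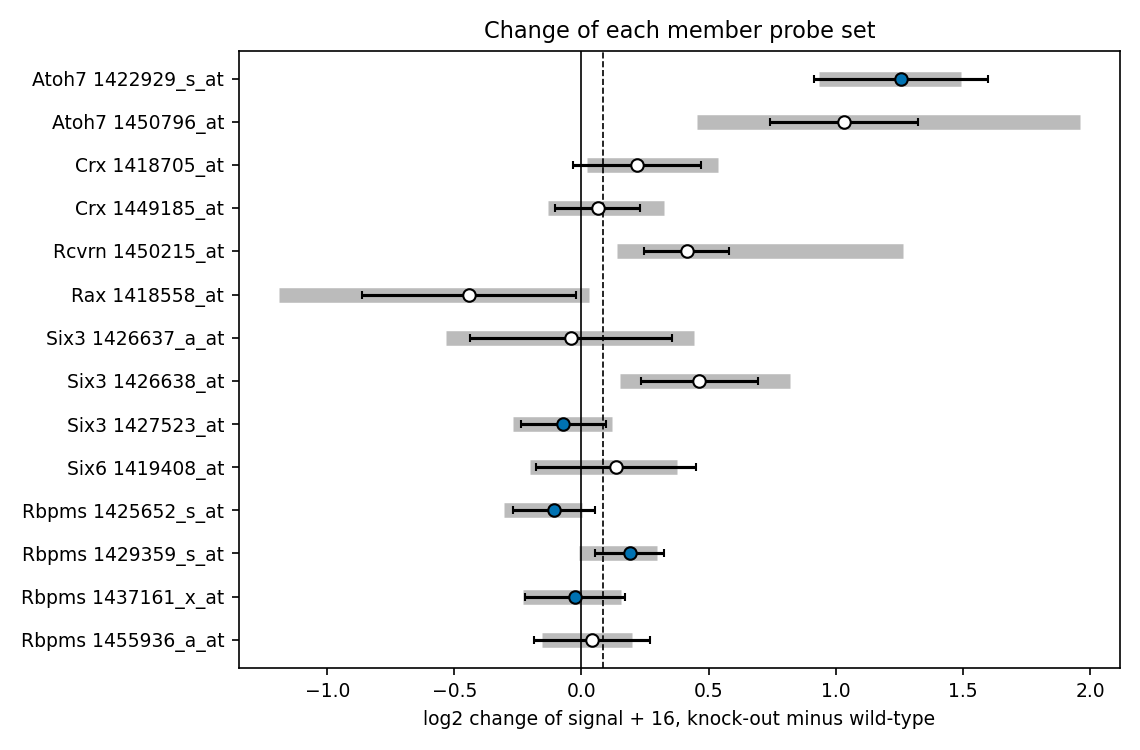
Log2 change of signal + 16, knock-out minus wild-type (horizontal axis), for each probe set; points are the values from all 13 arrays with SE bars, filled above and open below the dimness line, grey bars span all settings tried, and the dashed line is the median of all probe sets (0.08). The Atoh7 probe sets, at 1.26 and 1.03, lie to the right of the other 12, which run from -0.44 to 0.46, while the grey bar of Rcvrn reaches 1.26, its value with a constant of 1.

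No correlation of Atoh7 with another gene of the set passed from array to array. Taking the brightest probe set of each gene, r between Atoh7 and the others over 13 arrays was 0.25 for Rbpms, 0.17 for Rcvrn, 0.066 for Crx, -0.050 for Six6, -0.19 for Six3 and -0.45 for Rax. Spearman rho was 0.48, 0.14, 0.088, -0.25, -0.17 and -0.49 in the same order. None passed, the lowest permutation p being 0.123 for r and 0.0927 for rho, both for Rax (0.698 and 0.531 adjusted over the 21 pairs of the 7 genes). Without the 2 arrays farthest from the Atoh7 median, r was 0.12 for Rbpms, 0.13 for Rcvrn, -0.28 for Crx, -0.20 for Six6, 0.26 for Six3 and -0.28 for Rax. With 13 arrays and most of the genes near the bottom of the scale, these values do not show that no relation exists. The Atoh7 difference between the genotypes that chose the set also enters them, so their p serve as descriptions.

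Within each genotype no correlation of Atoh7 with the other genes passed either. The sign was the same in both genotypes for 4 of the 6 genes, below 0 for Rcvrn, Rax and Six6 and above 0 for Rbpms, and it differed for Crx and Six3. Within wild-type arrays (n = 6) r with Atoh7 ran from -0.70 for Rcvrn to 0.66 for Rbpms, with exact permutation p of 0.121 and 0.158. Within knock-out arrays (n = 7) it ran from -0.42 for Rcvrn to 0.41 for Rbpms, with exact permutation p of 0.359 and 0.345. With each litter centred on its mean, over the 12 arrays of litters with more than 1, r was 0.27 for Rbpms, 0.20 for Rcvrn, 0.0039 for Crx, -0.17 for Six6, -0.56 for Six3 and -0.48 for Rax. No single litter held enough arrays for a value of its own. Among the pairs without Atoh7, Crx with Rax had r = -0.52, Crx with Six6 r = 0.47 and Rax with Six3 r = 0.44. Over all 13 arrays 0 of the 21 pairs passed, and 0 had an unadjusted permutation p for r under 0.05. Within wild-type arrays Rcvrn with Rax had r = 0.93 (n = 6, exact permutation p = 0.0083, 0.175 adjusted over the 21), and within knock-out arrays r = -0.035 (n = 7).

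Most listed genes of the retina and the rest of the eye were dim. No retina of embryonic day 18.5 was measured. How bright these genes or Rcvrn would be in retina of that age was therefore not tested. Nrl, the rod-determining factor, had means of 62.7 ± 16.4 (SD, n = 6) and 63.6 ± 12.1 (SD, n = 7), Rbp3, a retinoid carrier, 79.2 ± 24.3 and 78.1 ± 17.1, and Sag, rod arrestin, 34.4 ± 10.5 and 25.7 ± 13.3, wild-type before knock-out. Of 30 photoreceptor genes with a probe set, of 35 listed, 5 lay above the dimness line, and their summed signal was 796 to 1096 in wild-type and 807 to 1135 in knock-out arrays. For comparison 3 of 21 genes of other organs, such as sperm, pancreas and lung, lay above the line, at sums of 607 to 878 and 648 to 988. This list is shorter than the photoreceptor list, so the sums are not comparable as they stand. Other retinal cells had 2 of 6 above the line (sums of 1216 to 1846 and 1223 to 1909), and Rlbp1, a retinoid-binding protein of retinal glia named after its values were seen, stood at 1275 ± 248 and 1207 ± 217. Rlbp1 made up most of these sums, and the cells that gave its signal were not identified. Also named after its values were seen, Guca1b, a guanylate cyclase activator of photoreceptors, had the largest log2 change of the photoreceptor list, 0.83 ± 0.29 (SE). Its signals were 8.81 to 26.1 in wild-type and 16.2 to 86.1 in knock-out arrays, so the groups overlapped, and it was not called.

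Genes of eye tissue outside the retina were mostly below the dimness line, with exceptions. Rpe65 of the pigment epithelium had means of 7.17 ± 5.64 (SD, n = 6) and 9.09 ± 5.45 (SD, n = 7), the pigment gene Tyrp1 16.8 ± 12.5 and 23.3 ± 10.3, and the lens crystallin Cryaa 5.74 ± 2.31 and 6.14 ± 1.54. Of 12 pigment genes 2 lay above the line (sums of 327 to 531 and 307 to 536), and of 17 lens and cornea genes 5 (737 to 947 and 719 to 877). Those above it, named after their values were seen, included the lens crystallins Crybb1 at 249 ± 34.1 and 226 ± 56.9 and Crybb3 at 93.4 ± 29.5 and 100.3 ± 7.61, and the pigment gene Oca2 at 125.1 ± 24.3 and 112 ± 25.7. The cells that gave these signals were not identified. The sums overlapped between the genotypes in each of these lists, and no value in them was 0.

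No correlation of Atoh7 with these lists passed. Its r with the mean log2 value of the photoreceptor list was 0.40 (rho 0.34), with other retinal cells 0.30 (rho 0.044), with pigment genes 0.16 (rho 0.15), with lens and cornea -0.050 (rho -0.044) and with the genes of other organs 0.35 (rho 0.20). Over the 15 relations computed, with 14 lists and the Actb ratio, the lowest permutation p was 0.0964 for r and 0.0754 for rho, both with the dorsal midbrain list (r = 0.48, rho = 0.52, adjusted p = 0.654 and 0.749). For that list r was 0.55 without the 2 arrays farthest from its median, 0.68 within wild-type arrays (n = 6, exact permutation p = 0.115), 0.42 within knock-out arrays (n = 7, exact permutation p = 0.347) and 0.47 with litters centred. With the Actb ratio r was -0.30 (rho -0.10), and -0.77 within wild-type arrays (n = 6, exact permutation p = 0.0486, 0.361 adjusted over the 15), where wild-type 2 holds both the highest ratio and the lowest Atoh7 signal.

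Other places that use these genes gave no call between the genotypes, beside 0.0555% of all probe sets called. Of the pineal list 4 of 6 genes had a probe set and 2 lay above the line, with Aanat, the enzyme that times melatonin synthesis, at 96.2 ± 32.9 (SD, n = 6) and 111 ± 48.1 (SD, n = 7) and Tph1, of serotonin synthesis, at 48.1 ± 20.3 and 32.2 ± 11.5. Of 12 pituitary genes 2 lay above it, with the hormone precursor Pomc at 153 ± 43.2 and 144 ± 28.7 and Pitx1 at 32.6 ± 9.81 and 40.5 ± 8.50. Of 15 hypothalamic genes 9 lay above it, and Nkx2-1, a patterning factor, was below it at 47.8 ± 10.5 and 44.0 ± 14.9. All 10 dorsal midbrain and all 7 measured striatal genes were above it, among the latter the dopamine receptor Drd2 at 296 ± 104 and 317 ± 48.8. Of 12 smooth muscle and pericyte genes 8 were, with the actin Acta2 at 601 ± 161 and 650 ± 161. With Atoh7, r was -0.073 (rho -0.055) for the pineal list, 0.40 (rho 0.27) for the pituitary, -0.29 (rho -0.48) for the hypothalamus, -0.080 (rho 0.099) for the striatum and 0.31 (rho 0.082) for smooth muscle. Within wild-type arrays the striatum gave r = 0.82 (n = 6, exact permutation p = 0.0472, 0.361 adjusted over the 15).

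**Figure D4:**
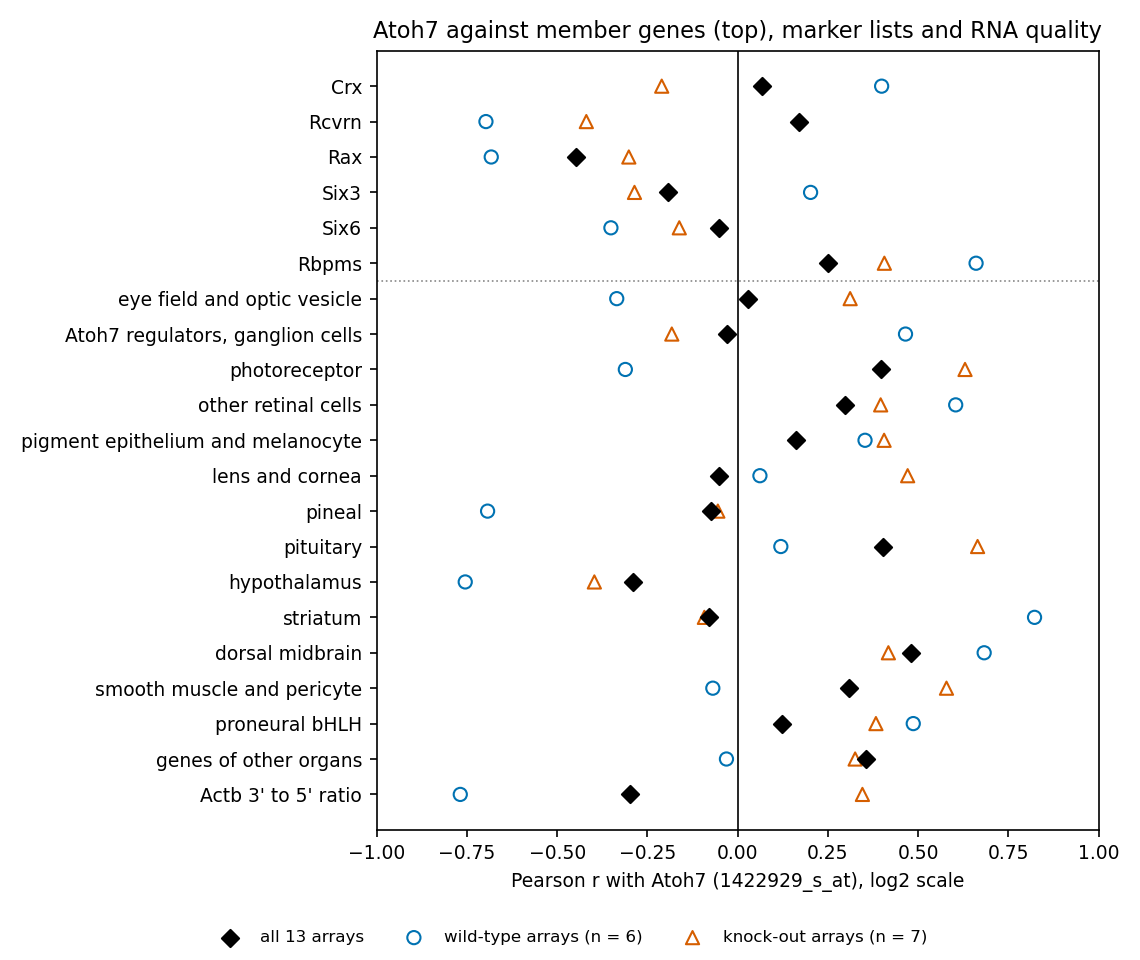
Pearson r (horizontal axis) of Atoh7 1422929_s_at with each member gene (above the dotted line) and with each marker list and the Actb ratio (below it), over all 13 arrays (diamonds), wild-type arrays (circles, n = 6) and knock-out arrays (triangles, n = 7). Over all arrays the member genes lie between -0.45 and 0.25 and the lists between -0.29 and 0.48, and values within a genotype scatter to both sides.

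Most genes that act with Atoh7 in the retina lay above the dimness line, and many of them are also used in brain neurons. Of the 16 regulators and ganglion cell differentiation genes listed, 15 had a probe set and 11 lay above the line. Limma called 0 of the 15, beside 0.0555% of all probe sets. Of the 15, 8 had a higher and 7 a lower mean, and the median log2 change was 0.01. Over all probe sets 69.6% had a higher mean and the median was 0.08. Pax6, an activator of Atoh7 in the retina, had a log2 change of -0.18 ± 0.19 (SE), and Neurog2, a proneural factor, one of 0.01 ± 0.28 (SE). Hes1, a repressor of proneural genes, stood at 0.40 ± 0.12 (SE). Its signals were 145 to 222 in wild-type and 227 to 284 in knock-out arrays, so its groups did not overlap, though it was not called. How many of all probe sets have groups that do not overlap was not counted. Isl1 and Pou4f1, transcription factors of ganglion cells and of brain neurons, had log2 changes of -0.39 ± 0.32 (SE) and 0.26 ± 0.28 (SE). The mean log2 value of the list had r = -0.030 (rho 0.21) with Atoh7, and r = 0.70 without the 2 arrays farthest from the list's median, so that value rests on those arrays.

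The eye field list and the proneural genes had 0 calls too. Over all probe sets 0.0555% were called, 69.6% had a higher mean and the median log2 change was 0.08. Of 8 eye field and optic vesicle genes with a probe set 7 lay above the line, 3 had a higher and 5 a lower mean and the median log2 change was -0.08. Lhx2 and Otx2, forebrain and eye homeobox genes, had log2 changes of 0.01 ± 0.16 (SE) and 0.09 ± 0.21 (SE), and r of that list with Atoh7 was 0.030 (rho -0.044). Of 9 proneural genes 5 lay above the line, 4 had a higher and 5 a lower mean and the median was -0.08, with r = 0.12 (rho 0.23).

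Among genes above the dimness line, those whose signal went most closely with Atoh7 were not retinal genes of the lists. Crx, Rcvrn, Rax, Six6 and most of the listed photoreceptor genes lay below that line and could not be named. With each genotype centred on its mean, the 5 genes above the dimness line with the highest r over 13 arrays were Derl3 (0.90), which acts in the breakdown of misfolded proteins, A830029E22Rik (0.89), Frs3 (0.89), an adaptor of growth factor receptors, Polr2f (0.88), an RNA polymerase subunit, and Mxra7 (0.87). These are the highest values among all genes compared and carry no test. Between the genotypes their log2 changes were small beside that of Atoh7, from -0.47 ± 0.31 (SE) for Derl3 to 0.13 ± 0.11 (SE) for Polr2f.

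Atoh1, another factor of the atonal class and one of cerebellar and hindbrain progenitors, is named here after its values were seen. Its r with Atoh7 was 0.84 with genotypes centred, 0.89 within wild-type and 0.83 within knock-out arrays, but 0.35 over all 13. Atoh1 signals were 128.8 ± 42.5 (SD, n = 6) in wild-type and 100.2 ± 52.0 (SD, n = 7) in knock-out arrays, with a log2 change of -0.50 ± 0.42 (SE). It was lowest in knock-out 7 (4.39) and knock-out 6 (57.5), the 2 knock-outs without high Atoh7, and in wild-type 2 (63.9), the wild-type array with the lowest Atoh7. Among knock-out 1 to 5 the order was not shared, as knock-out 2 (154) was highest for Atoh1 and lowest for Atoh7 and knock-out 4 (101) the reverse. Probe sequences were not used here, so whether the Atoh7 probes also match Atoh1 was not tested.

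**Figure D5:**
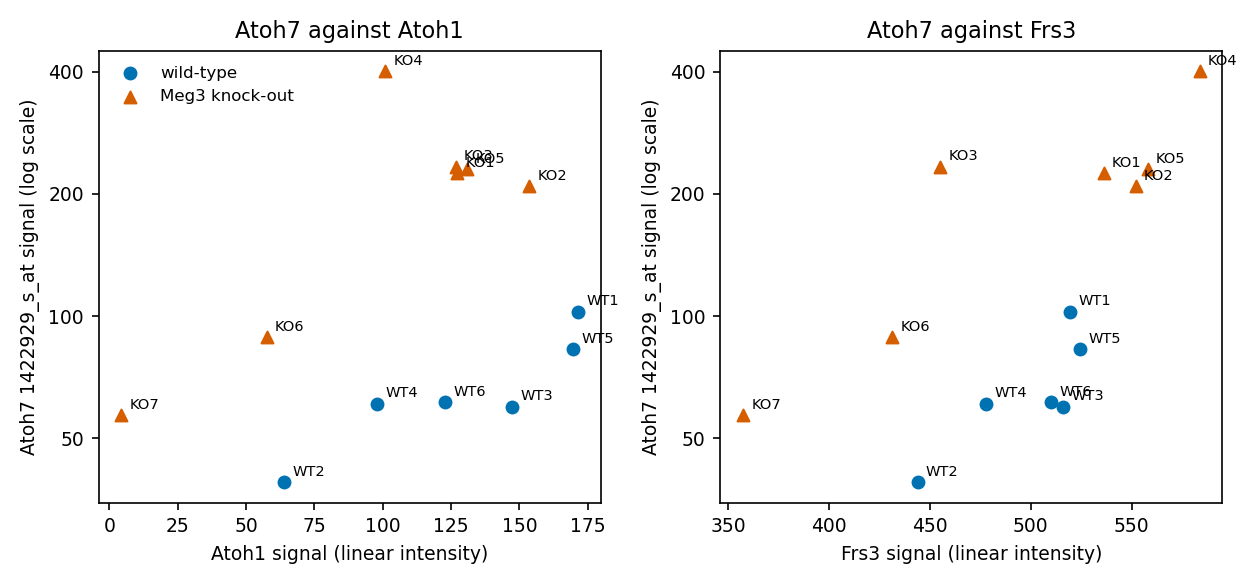
Atoh7 1422929_s_at signal (vertical axis, log scale) against Atoh1 and Frs3 signal (horizontal axes, linear intensity), with 1 labelled point per array, wild-type as circles and knock-out as triangles. Wild-type 2 is the lowest wild-type array, and knock-out 7 and 6 the lowest knock-out arrays, for all 3 genes. For Atoh7 alone, knock-out 1 to 5 all lie above the wild-type arrays.

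Each of the other genes had its own companions. For Six3 the 2 genes most alike by the same measure were Tbx3 (0.93), a T-box factor of the eye field list read here on another of its probe sets, and 1110017D15Rik (0.91). For Six6 they were Smad2 (0.93) and Xpot (0.92), and for Rax Dtd2 (0.84) and the pericyte gene Rgs5 (0.83). For Crx they were Slc36a1 (0.83) and Ebi3 (0.80), for Rcvrn AI606473 (0.79) and Txndc17 (0.78), and for Rbpms Sys1 (0.89) and Ndufb9 (0.88). No gene was named for more than 1 of the 7.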

How the data were processed

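Total RNA of 13 whole brains was labelled from 5 µg by the Affymetrix one-cycle procedure, per the labels' protocols. The authors deposited 1 linear intensity per probe set and array. The sources used here give neither summary software nor scaling. Besides 45037 probe sets, 64 controls were left out. Symbols came from the platform annotation, where 34945 of the rest had 1 symbol, 932 several and 9160 none, and 34741 of the named matched RefSeq (GRCm38.p6), with 0 symbols updated. The number of arrays limits the precision.

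Intensities were turned into log2(signal + 16). All probe sets and 13 arrays entered 1 linear model (R 4.3.3; limma 3.58.1, its lmFit and eBayes functions) with two-sided tests, no covariate, Benjamini-Hochberg adjustment and a threshold of 0.05. The fit was tested on data simulated from these arrays with known changes. Correlations used the highest-mean probe set of each gene, with two-sided permutation tests over arrays (100000 resamples, all pairings within a genotype), which ignore litter. With Pou4f2 unmeasured, 21 pairs were adjusted over in place of the planned 28.

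Named are all probe sets of the 8 symbols, Meg3, the 5 genes most alike to Atoh7 and 2 for each other gene, list genes past the threshold and a fixed set of markers. Members and lists were chosen with earlier results of these data known. Alternatives covered the pseudocount, normalization, dim probe sets, left-out arrays and litters, litter or title number as a block, and RNA quality. Litter was read from the embryo label. Deviations of wild-type and knock-out littermates correlated at -0.12 to 0.75, and of arrays of the same title number at -0.43 to 0.20. Plots used matplotlib 3.10.9 in Python 3.11.15.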

Additional observations from a re-analysis of the deposited data

Results flagged for a closer look

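Of 28 groups of arrays examined, 14 probe sets in each genotype, 3 held 1 array far from the rest, where chance gives about 1 in 20. Wild-type 2 was far below the other wild-type arrays on 2 Six3 probe sets, at 4.42 on 1426637_a_at (others 44.5 to 87.2) and at 3.50 on 1426638_at (others 21.1 to 32.3). Knock-out 1 was far below the other knock-out arrays on Six6 1419408_at, at 10.6 (others 28.2 to 49.0), just past the limit. Wild-type 2 and knock-out 1 are the 2 arrays of highest Actb 3′ to 5′ ratio, and the part of RNA quality in these values was not tested. No Atoh7 group held such an array.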

How the results depend on the processing

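Over 29 alternatives the log2 change of Atoh7 1422929_s_at ranged from 0.93 (pseudocount of 64) to 1.49, and without 1 array from 1.07 to 1.49. With the litter as a replicate block it was 1.13, and 1.03 on 1450796_at. With the title number as a replicate block, which leaves knock-out 7 without a partner, it was 1.49 and 1.16. That of 1450796_at was 1.96 with a pseudocount of 1 and 0.46 with 64, and without 1 array 0.86 to 1.19. No member was called in any setting.

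The 3 probe sets called higher fell to 0 with a pseudocount of 64, quantile normalization, median centring, either replicate block, the intensity trend, probe sets above the 40th percentile or 1 per gene, and without litters 148 or 250. They fell to 1 without litters 219 or 262, or without the 2 arrays of highest Actb ratio, and were 0 to 6 without 1 array (6 without wild-type 6). The 22 called lower were 17 with the litter block, 12 without litter 250, 10 with the title number block, 3 with 1 probe set per gene above the 40th percentile, and 17 to 21 without 1 array. Fewer features or arrays enter some of these fits, and for the others the cause was not tested.

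The count of member genes whose correlation with Atoh7 passed stayed at 0 in 25 alternatives. Weak correlations changed sign, while r for Rax stayed below 0, at -0.72 to -0.17 over 26 alternatives. For Crx r was -0.0029 after median centring, -0.072 without litter 219, -0.30 without litter 238, -0.0020 without the 2 arrays of highest Actb ratio, -0.022 with genotypes centred, -0.25 with Atoh7 probe set 1450796_at, and -0.16 to 0.22 without 1 array. For Rcvrn it was -0.023 without litter 250, -0.46 with genotypes centred, and -0.0022 to 0.43 without 1 array. For Six3 it was 0.40 without litter 238, 0.50 with probe set 1426638_at, and -0.36 to 0.092 without 1 array. For Six6 it was 0.079 without litter 148, 0.023 without the 2 arrays of highest Actb ratio, 0.012 with Atoh7 probe set 1450796_at, and -0.14 to 0.079 without 1 array. For Rbpms it was -0.089 with 1425652_s_at, -0.27 with 1455936_a_at and -0.11 with Atoh7 probe set 1450796_at. For the lists it was -0.012 for the eye field, 0.29 for lens and cornea and 0.32 for pineal over members above the 40th percentile, and 0.012 for Atoh7 regulators, 0.28 for lens and cornea and 0.16 for striatum with genotypes centred. None of these passed, and for these the cause was not tested. Dim signals limit Crx, Rcvrn, Rax and Six6, whose probe sets all lay below the dimness line.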
